A study of Mus musculus with 2 samples.

Results

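Most of the genes described here encode enzymes that place methyl groups on histones and DNA, or enzymes that take them off. They also include 2 non-catalytic subunits of Polycomb repressive complex 2 (PRC2). They were chosen by symbol from a table of 30868 features, as names beginning Kdm, Kmt, Setd, Prmt or Dnmt followed by a digit, Suv39h and Ehmt genes, and Tet1 to Tet3, Ezh1, Ezh2, Nsd1 to Nsd3, Dot1l, Eed and Suz12, with Kdm3a left out. The names took in 64 features, among them the antisense RNAs Kdm6bos, Dnmt3aos and Dnmt3bos and the pseudogene Dnmt3l-ps1. The rule did not use any measured value. Of these, 56 had a mean of at least 1 RPKM (reads scaled to feature length and library size) over both libraries and were compared, as were 13947 features of the whole table.

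RNA came from MIN6, a mouse insulinoma line used as a beta cell model. Each of 2 groups had 1 library, one of them labelled normal and the other, called the treated library here, labelled high glucose and palmitate. The labels give a modified medium with glucose at 33.3 mmol/l, palmitate at 0.4 mmol/l and albumin (BSA) at 0.5%. That text stands on both sample records, so it leaves unsaid what the normal cells grew in. The series asks how lactate dehydrogenase A bears on histone lactylation and on beta cells under toxic glucose. The normal library held 44149406 reads and the treated library 43727919. With 1 library per group there is no replicate error and no test. The bracketed range after a ratio is its exact 95% counting interval, treated RPKM over normal, and holds for this pair of libraries rather than for the conditions. Other sources of spread between cultures were not measured. Beta cell markers were present, with all 12 listed above the minimum level, led by Chga and Iapp at 4740 and 4664 RPKM in the normal library. They were lower in the treated library for 10 of the 12, at least 20% lower for 6 and at least 1.5-fold lower for 2, with a median log2 ratio of -0.26. The ratio was 0.527 (0.49608 to 0.56003) for Ins1, 0.606 (0.5988 to 0.6136) for Ins2 and 0.712 (0.6649 to 0.7613) for Mafa, while Chga and Iapp had 0.980 and 1.01. The part of this shift in the values of the methylation enzymes was not tested. Among markers of other islet cells, Gcg went from 7.31 RPKM to 4.68 between normal and treated, Ttr from 57.0 to 65.0 and Sst from 7.45 to 9.67. Of 3 ductal markers Krt7, which shares exon positions with another feature, was present at 16.15 and 17.95 RPKM, a ratio of 1.11 (1.07 to 1.15), Sox9 had 0 and 2 reads, and Krt19 had none. The summed level of 3 endothelial markers was 0.0873 and 0.114 RPKM, with Kdr at 0 in both. The summed level of 3 fibroblast markers was 0.394 RPKM in the normal against 0.426 in the treated library, and that of 4 macrophage markers 1.13 and 1.38.

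Histone methylation is written by SET domain proteins and by Dot1l on lysine and by Prmt enzymes on arginine, all of which use S-adenosylmethionine as the methyl donor. It is removed by the flavin enzymes Kdm1a and Kdm1b and by Jumonji demethylases, which, like the Tet enzymes that oxidise methylcytosine, need oxygen, iron and 2-oxoglutarate. Methylation at H3K4 and H3K36 goes with active genes, that at H3K9 and H3K27 with repressed ones. In mouse beta cells Ezh2 is known to support replication, and Dnmt1 and Dnmt3a are known to hold genes of other cell types or of immature cells silent.

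Measured against other genes, these enzymes differed little between the libraries. Sizes were read from log2 of RPKM plus 0.5, on which 25% higher and 20% lower are the same factor. By this measure 2 of the 56 were at least 20% lower in the treated library, against 6.04% of all features compared, and 0 were at least 25% higher, against 5.89%. At 1.5-fold there were 0 in either direction, with 1.74% of all features higher and 1.48% lower by that much. The 2 at least 20% lower were Kdm4b, a demethylase of H3K9, and Prmt8, an arginine methyltransferase. The median log2 ratio was 0.0072, beside 0.0028 over all features, with 30 members above 0 and 26 below, beside 50.7% and 49.3% of all features. Their ratios were also spread less widely, with the 5th and 95th percentiles at -0.22 and 0.21, against -0.36 and 0.35. The members were sequenced more deeply, with a median of 6260 reads over both libraries against 1950, and the part of this depth in the narrower spread was not tested.

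**Figure D1:**
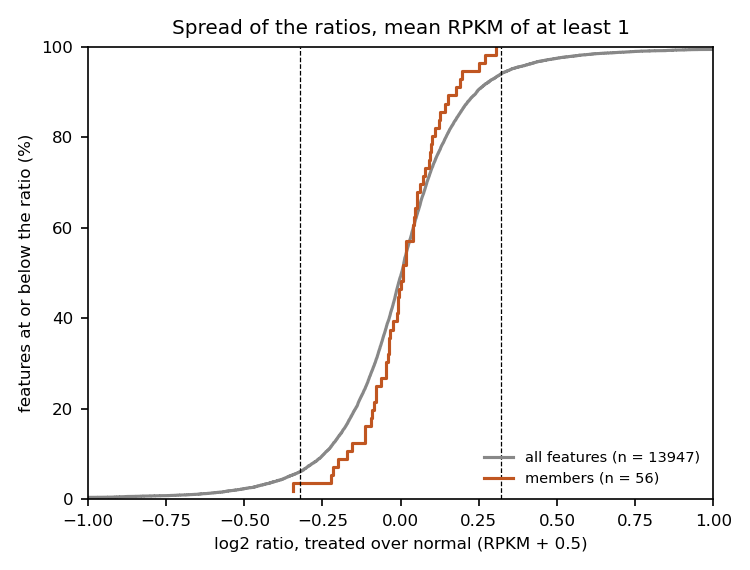
Cumulative share of features (%) by log2 ratio of treated to normal (RPKM + 0.5) for the 56 members and all 13947 features compared, with dashed lines at 20% lower and 25% higher. The curve of the members is steeper and ends before the upper line, while 2 members lie beyond the lower one. The horizontal axis is limited to -1 to 1, which leaves some features out of view.

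The counting interval lay above a ratio of 1 for 17 members and below it for 14. Those shares, 30.4% and 25%, stand beside 22% and 22.3% of all features, which had fewer reads. Plain RPKM ratios ran from 0.755 for Prmt8 to 1.253 for Kdm6bos, an antisense RNA, or 1.22 for Kdm7a among protein-coding genes. Within this narrow range, the lower end after Kdm4b, Prmt8 and Setd3 held Suz12, Dnmt1 and Ezh2, and the upper end held Kdm7a, Kdm6b, Tet3, Setd1b and Nsd1.

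**Figure D2:**
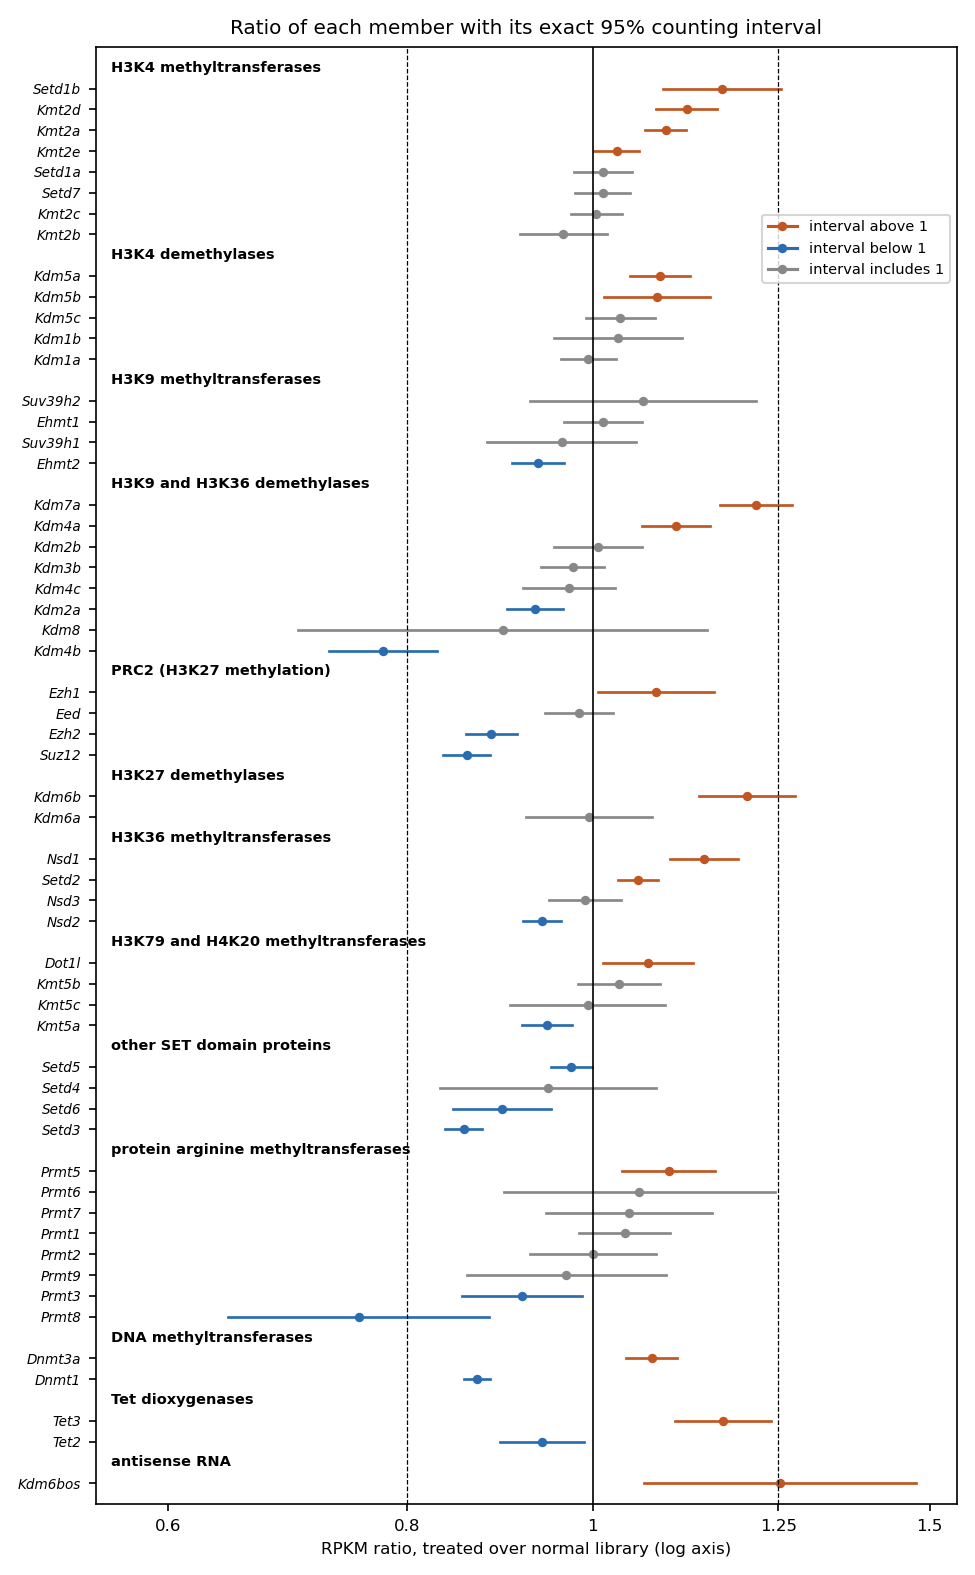
RPKM ratio of treated to normal for the 56 measured members on a log axis, grouped by role, with exact 95% counting intervals as bars and dashed lines at 20% lower and 25% higher. Kdm4b and Prmt8 lie beyond the lower line. The plain ratio of Kdm6bos of 1.253 is just past the upper line, though its log2 ratio on RPKM plus 0.5 is 0.31.

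The bases before the start of 6 genes are shown because PRC2 and DNA methyltransferase genes in the lower part of the range can be set against genes in the upper part. They are the 250 bases before the most upstream start of each gene in RefSeq (build GRCm38.p6, not the GRCm39 of the expression table), in lower case with the letters CCAAT, or ATTGG for the other strand, in capitals. First bases of annotated transcripts were found around that start for 2 of 6 of Suz12, 4 of 15 of Ezh2 and 1 of 7 of Dnmt1. For Ezh1, Kmt2d and Kdm7a it was 3 of 9, 2 of 5 and 1 of 2. Which start the MIN6 cells use was not measured. CCAAT is the box bound by the factor NF-Y. The first 3 genes were lower in the treated library and the last 3 higher.
Suz12, chr11:79992856-79993105, plus strand: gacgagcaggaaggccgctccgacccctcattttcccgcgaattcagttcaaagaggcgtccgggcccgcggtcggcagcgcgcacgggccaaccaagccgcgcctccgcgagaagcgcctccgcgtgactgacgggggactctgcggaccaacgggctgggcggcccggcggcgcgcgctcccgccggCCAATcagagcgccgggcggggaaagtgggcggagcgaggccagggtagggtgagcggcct
Ezh2, chr6:47595031-47595280, minus strand: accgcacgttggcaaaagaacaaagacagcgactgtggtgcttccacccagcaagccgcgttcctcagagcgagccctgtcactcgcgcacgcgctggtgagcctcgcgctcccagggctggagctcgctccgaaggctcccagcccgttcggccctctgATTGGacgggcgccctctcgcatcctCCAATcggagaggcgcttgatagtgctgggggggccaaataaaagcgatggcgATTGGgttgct
Dnmt1, chr9:20959889-20960138, minus strand: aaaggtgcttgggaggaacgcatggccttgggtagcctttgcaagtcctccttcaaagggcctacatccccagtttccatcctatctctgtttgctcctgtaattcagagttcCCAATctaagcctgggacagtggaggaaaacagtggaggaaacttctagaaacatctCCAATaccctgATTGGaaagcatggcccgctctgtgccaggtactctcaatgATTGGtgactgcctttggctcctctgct
Ezh1, chr11:101226464-101226713, minus strand: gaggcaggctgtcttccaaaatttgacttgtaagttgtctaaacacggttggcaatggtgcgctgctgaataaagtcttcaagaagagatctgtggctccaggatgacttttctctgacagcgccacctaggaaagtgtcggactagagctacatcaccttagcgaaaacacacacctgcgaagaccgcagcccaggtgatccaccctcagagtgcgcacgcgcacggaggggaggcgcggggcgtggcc
Kmt2d, chr15:98871206-98871455, minus strand: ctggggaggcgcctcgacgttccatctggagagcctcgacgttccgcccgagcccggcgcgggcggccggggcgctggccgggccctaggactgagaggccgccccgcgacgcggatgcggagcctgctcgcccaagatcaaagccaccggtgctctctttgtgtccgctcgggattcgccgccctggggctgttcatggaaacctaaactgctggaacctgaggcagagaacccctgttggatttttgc
Kdm7a, chr6:39206774-39207023, minus strand: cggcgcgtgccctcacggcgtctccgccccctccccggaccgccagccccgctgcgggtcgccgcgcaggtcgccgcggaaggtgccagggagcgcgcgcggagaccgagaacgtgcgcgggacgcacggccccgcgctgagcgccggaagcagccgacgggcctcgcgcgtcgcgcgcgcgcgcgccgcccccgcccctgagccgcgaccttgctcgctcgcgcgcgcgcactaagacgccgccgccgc

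These windows held the box 1 time before Suz12, 3 times before Ezh2 and 4 times before Dnmt1, and 0 times before Ezh1, Kmt2d and Kdm7a. RefSeq had such a window for 49 of the 64 members. Among members whose interval lay below 1, 6 of 11 windows held CCAAT on either strand. Among those above 1 it was 3 of 11, and among those including 1 it was 8 of 22. The 3 above 1 were Prmt5, Kdm4a and Tet3, while Setd6, with an interval below 1, had none. The 6 genes shown were picked by name and do not stand for these groups. Kmt2d and Ezh1, shown without the box, had smaller ratios than Tet3, which held it and is not shown. Kdm4b and Prmt8, the lowest of the measured members, are not shown either. The share over all 27025 genes was 34.5%. The letters TTTGAA, read on both strands as for all motifs here, occurred in 3 of 11, 0 of 11 and 3 of 22 of the same groups and in 16.3% of all genes. For ACGTG, the core bound by hypoxia-inducible factors, the counts were 4, 4 and 3 beside 16.5%, and for CACGTG, which contains it, 2, 0 and 2 beside 6.04%. TTCCCGC was in 1, 0 and 3 windows beside 3.86%, and GCGCGAA was in 0 of the 49 beside 1.31%. The counts are small, the groups were formed by the ratios, and a match of letters is not a bound site.

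Dnmt1, which copies DNA methylation after replication, had the highest level of all members. It stood at 104.6 RPKM in the normal against 91.0 in the treated library, a ratio of 0.870 (0.857 to 0.884). It lies on chromosome 9 at 20818505 to 20871184 (GRCm39, minus strand). Dnmt3a, which methylates DNA anew, was on the other side of 1, at 11.0 and 11.8 RPKM and a ratio of 1.07 (1.04 to 1.11). The other genes of this family were below the minimum level. Dnmt3b had 126 reads in the normal against 140 in the treated library, Dnmt3l 2 and 15, and Dnmt3c, a close copy of Dnmt3b, 11 and 2. At these levels, under 0.2 RPKM for Dnmt3l and Dnmt3c, no comparison of levels was drawn. The antisense RNAs Dnmt3aos and Dnmt3bos had 0 and 1 and 2 and 4 reads, and the pseudogene Dnmt3l-ps1 had 0 and 2.

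The Tet genes were expressed far below Dnmt1. Tet3 stood at 2.94 RPKM in the normal against 3.44 in the treated library, a ratio of 1.17 (1.10 to 1.24). Tet2 was lower, at 4.31 RPKM in the normal against 4.06 in the treated library, with a ratio of 0.941 (0.895 to 0.989). Tet1, just under the minimum level, had 666 and 610 reads and a ratio of 0.925 (0.827 to 1.03). Summed over Dnmt1, Dnmt3a, Dnmt3b and Dnmt3l, the RPKM was 14.1 times that of the 3 Tet genes in the normal and 12.3 times in the treated library. Dnmt1 made up most of that sum.

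**Figure D3:**
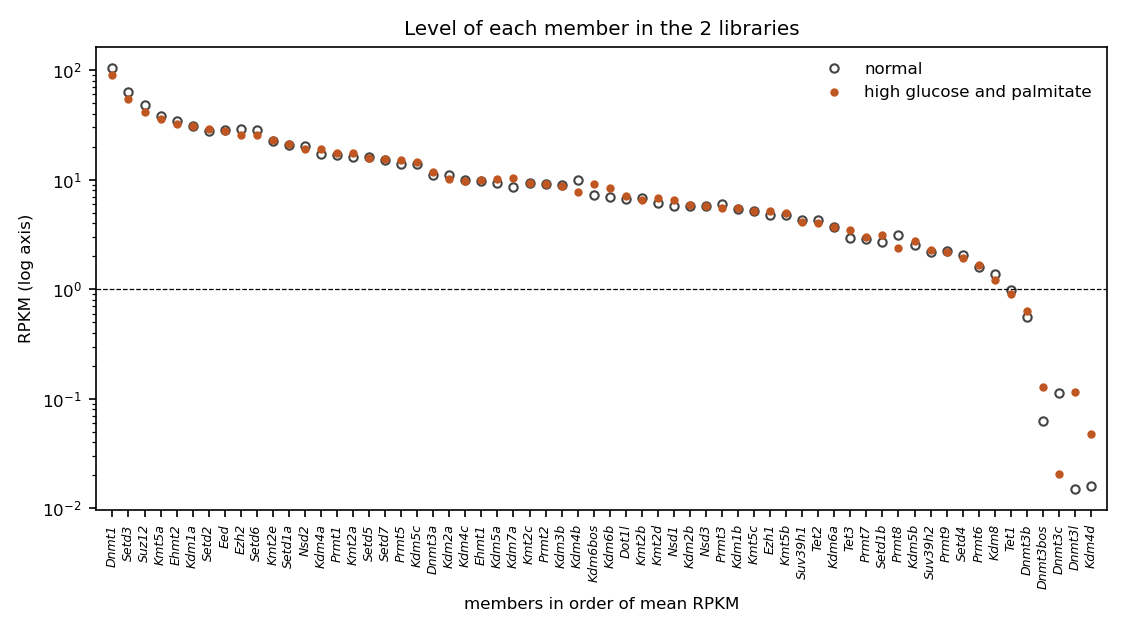
RPKM on a log axis of each member with reads in both libraries, in order of mean level, with open circles for the normal and filled circles for the treated library and a dashed line at the minimum mean of 1 RPKM. Dnmt1 leads at 104.6 and 91.0 RPKM, followed by Setd3 and Suz12, and the symbols of most members nearly coincide.

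PRC2 methylates H3K27 through Ezh2 or Ezh1, with Eed and Suz12 as the subunits both need. Suz12 stood at 48.1 RPKM in the normal against 41.4 in the treated library, a ratio of 0.860 (0.836 to 0.884). Ezh2, the form of dividing cells, stood at 29.0 and 25.7 RPKM, a ratio of 0.885 (0.858 to 0.913). Both were lower in the treated library by more than counting error. Its paralogue Ezh1, which prevails in resting cells, was higher, at 4.78 and 5.15 RPKM and a ratio of 1.08 (1.01 to 1.16). The ratio of Ezh2 to Ezh1 was 6.08 in the normal against 4.99 in the treated library. Eed was close to equal, at 28.4 and 28.0 RPKM. Its interval included 1.

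Of the genes that reverse this mark, Kdm6b, also known as Jmjd3 and inducible by inflammatory signals, was higher. It stood at 7.03 RPKM in the normal against 8.46 in the treated library, a ratio of 1.20 (1.14 to 1.28). Kdm6a, its X-linked relative, had 3.69 and 3.67 RPKM. Kdm6b lies on chromosome 11 from 69289334 to 69304501 (GRCm39, minus strand), and Kdm6bos is listed on the plus strand from 69292339 to 69293526. Kdm6bos had 270 reads in the normal against 335 in the treated library, a ratio of 1.253 (1.06 to 1.48). Both ratios were above 1, but 286 of the 840 bases of Kdm6bos are exon of Kdm6b. The sources used here do not say if counting used strand, so their reads cannot be told apart there. The summed RPKM of the 4 PRC2 genes was 10.3 times that of Kdm6a and Kdm6b in the normal library and 8.26 times in the treated one.

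Most listed genes of dividing cells were lower alongside Dnmt1, Suz12 and Ezh2. Of 26 genes listed for proliferation, 24 had a log2 ratio below 0 and 12 were at least 20% lower, with a median of -0.29. Mki67 stood at 0.689 and Ccnb2 at 0.643. The Mcm genes of DNA replication were closer to equal, from 0.924 for Mcm3 to 1.03 (1.01 to 1.05) for Mcm4. The 2 genes above 0 were Mcm4 and Mcm6. Uhrf1, which brings Dnmt1 to replicated DNA, had a ratio of 0.900 (0.868 to 0.934). The part of proliferation in the ratios of Dnmt1, Suz12 and Ezh2 was not tested, and in bulk RNA fewer dividing cells and less RNA per cell cannot be told apart.

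Genes grouped as methyltransferases of H3K4, among them Kmt2e, leaned to the higher side by small amounts, with 7 of 8 above 0. The interval lay above 1 for 4 and below it for 0. Over all features 50.7% were above 0 and 22% had an interval above 1. Their median log2 ratio was 0.029. Setd1b, of the complex that methylates active promoters, stood at 2.69 RPKM in the normal against 3.14 in the treated library, a ratio of 1.17 (1.09 to 1.254). Kmt2d, a main methyltransferase of enhancers, stood at 6.13 and 6.86 RPKM, a ratio of 1.12 (1.08 to 1.16). Kmt2a, the MLL gene, stood at 16.0 and 17.5 RPKM, a ratio of 1.09 (1.06 to 1.12). Kmt2e, a reader of H3K4 methylation that was grouped here by its name, had a ratio of 1.03 (1.001 to 1.06). It shares 9.31% of its length with Srpk2 on the opposite strand, which had a ratio of 0.871. Intervals included 1 for Kmt2c at 1.00, Setd7 at 1.01 and Kmt2b, the only member of the group below 1, at 0.965. The ratio of Setd1a, 1.01, is uncertain, since 51.8% of its length is shared on the same strand with Gm49388.

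The H3K4 demethylases lay in the same direction. Kdm5a stood at 9.32 RPKM in the normal against 10.1 in the treated library, a ratio of 1.08 (1.05 to 1.12). Kdm5b had 2.56 and 2.76 RPKM, also a ratio of 1.08 (1.01 to 1.15). The X-linked Kdm5c was at 1.03, Kdm1b at 1.03 and Kdm1a, the most abundant of them at 31.0 and 30.8 RPKM, at 0.995, all with intervals that included 1. Kdm1b shares 505 bases with Dek on the opposite strand, a gene of 536.5 RPKM in the normal library and a ratio of 0.8003. Genes grouped as H3K4 methyltransferases had 1.599 times the summed RPKM of these demethylases in the normal library and 1.62 times in the treated one. That sum includes the reader Kmt2e, at 22.3 and 23.0 RPKM, and Setd1a, called uncertain above, so it is not one of writers alone.

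Among H3K9 methyltransferases, Ehmt2, also known as G9a, stood at 34.1 RPKM in the normal against 31.9 in the treated library, a ratio of 0.937 (0.908 to 0.966). Ehmt1, which pairs with it, had a ratio of 1.01, and Suv39h1 and Suv39h2, which methylate constitutive heterochromatin, had ratios of 0.963 and 1.06. The interval included 1 for each of these 3. Exons of Suv39h1 overlap those of Gm14820 on the opposite strand over 17.2% of its length.

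Demethylases of H3K9 and H3K36 went both ways, and with them lay both the lowest and the highest ratio among the histone lysine demethylases. Kdm4b, which removes H3K9 trimethylation and is known as a target of hypoxia-inducible factors, stood at 9.87 RPKM in the normal against 7.67 in the treated library. Its ratio was 0.777 (0.728 to 0.829), from 2133 and 1641 reads. It lies on chromosome 17 at 56633062 to 56709870 (GRCm39, plus strand), with no exon shared with another listed feature. Its relative Kdm4a, which acts on the same marks, was higher, at 17.2 and 19.0 RPKM and a ratio of 1.11 (1.06 to 1.15). Kdm4c lay between them at 0.972 (0.919 to 1.03), and Kdm4d, with 2 and 6 reads, was too low to compare. Kdm7a, which removes dimethylation of H3K9 and H3K27, stood at 8.49 and 10.3 RPKM, a ratio of 1.22 (1.17 to 1.27). It lies on chromosome 6 at 39113557 to 39183723 (GRCm39, minus strand). Exons of Kdm7a overlap 4930599N23Rik on the opposite strand over 2.85% of its length. Kdm2a was slightly lower at 0.933 (0.902 to 0.965), and Kdm2b at 1.01, Kdm3b at 0.976 and Kdm8 at 0.897 had intervals that included 1.

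Most listed hypoxia genes were lower alongside Kdm4b. Of 15 measured genes of that list 13 had a log2 ratio below 0, and 8 were at least 20% lower, with a median of -0.33. Ankrd37 stood at 0.607 and Pdk1 at 0.706. The 2 above 0 were Vegfa at 1.09 (1.08 to 1.10) and Hif1a at 1.17 (1.14 to 1.20). Other Jumonji demethylases went both ways, with Kdm2a at 0.933, Kdm4c at 0.972 and Kdm6b at 1.20. The part of oxygen sensing in the level of Kdm4b was not tested.

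The H3K36 methyltransferases were divided. Nsd1 stood at 5.77 RPKM in the normal against 6.59 in the treated library, a ratio of 1.14 (1.10 to 1.19). Setd2, which adds the third methyl group on transcribed genes, had 27.7 and 29.2 RPKM and a ratio of 1.06 (1.03 to 1.08). Nsd2 was lower, at 20.1 and 18.9 RPKM and 0.941 (0.919 to 0.963), and Nsd3 was at 0.991 with an interval that included 1. Dot1l, the H3K79 methyltransferase, had a ratio of 1.07 (1.01 to 1.13). Kmt5a, which places the first methyl group on H4K20 around mitosis, stood at 38.0 and 35.9 RPKM and a ratio of 0.946 (0.918 to 0.975), while Kmt5b at 1.03 and Kmt5c at 0.994, which add further ones, had intervals that included 1.

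Setd3 to Setd6, grouped here because their main substrates are not histones or are debated, were all below 1. Setd3, which methylates a histidine of actin, was the second most abundant member, at 63.0 RPKM in the normal against 54.0 in the treated library, a ratio of 0.856 (0.837 to 0.876). Setd6, which methylates the NF-kB subunit RelA, had a ratio of 0.897 (0.845 to 0.951). Setd5 was at 0.974 (0.951 to 0.999), and for Setd4 at 0.947 the interval included 1.

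Of 8 arginine methyltransferases, 5 were above 0 and 3 below. Prmt8, which is anchored to membranes and known mainly from brain, stood at 3.16 RPKM in the normal against 2.38 in the treated library, from 380 and 284 reads. Its ratio of 0.755 (0.645 to 0.882) was the lowest of the measured members. With a pseudocount of 1 its log2 ratio was -0.30, short of 20% lower. It lies on chromosome 6 at 127665974 to 127746435 (GRCm39, minus strand) and shares 8.55% of its length with Gm42738 on the opposite strand. Prmt5, the main source of symmetric dimethylarginine, was higher, at 13.8 and 15.1 RPKM and a ratio of 1.10 (1.04 to 1.16). Prmt3, which methylates a ribosomal protein, was at 0.918 (0.854 to 0.987). The intervals of Prmt1 at 1.04, the main source of asymmetric dimethylarginine, and of Prmt2 at 1.00, Prmt6 at 1.06, Prmt7 at 1.04 and Prmt9 at 0.969 included 1. Prmt6 shares 23.4% of its length with C130013H08Rik on the opposite strand. In all, 25 of the 56 measured members overlap exons of another listed feature, 4 of them over more than 10 percent of their length.

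Length and level, which the choice of members did not use, were unevenly spread over the ratios. Of 21 members of at least 10000 bases, 15 had a log2 ratio above 0, beside 566 of 1093 such features in the whole table. Of 12 members with a mean of at least 20 RPKM, 9 were below 0, beside 1374 of 2630. Over the 56 members, which share both libraries, Spearman's rho of log2 ratio with length was 0.29 and with mean level -0.21, and over all features these were 0.020 and -0.046. Among the members, length and level were nearly unrelated, with a rho of -0.024.

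**Figure D4:**
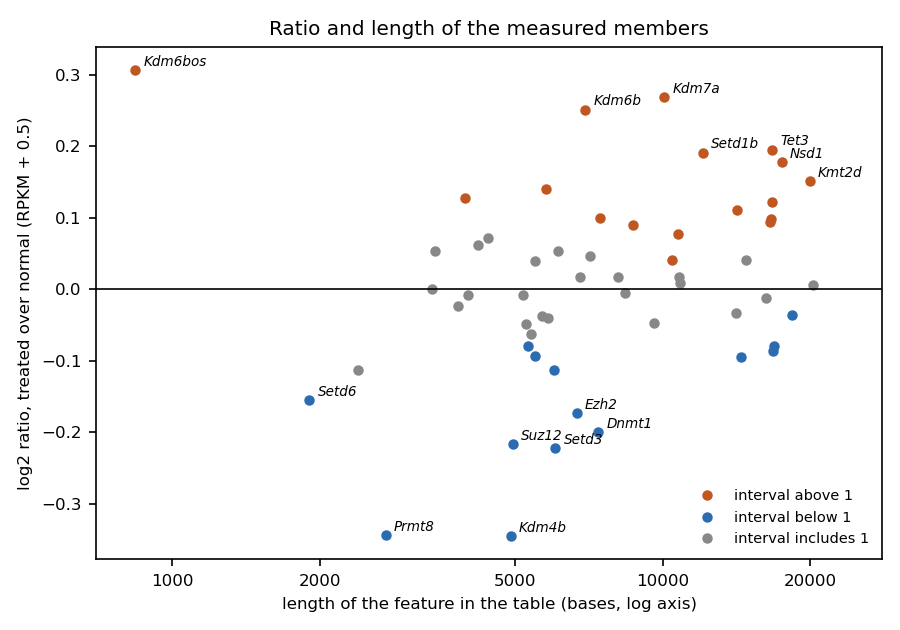
Log2 ratio of treated to normal (RPKM + 0.5) against feature length in bases on a log axis for the 56 measured members, coloured by whether the counting interval excludes a ratio of 1. Members of 10000 bases or more are above 0 in 15 of 21 cases, while Kdm4b and Prmt8, both shorter than 5000 bases, are lowest.

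Lists of partners, readers and cofactor genes outside the name rule had small median log2 ratios. Over all features compared 5.89% were at least 25% higher and 6.04% at least 20% lower. In lists this short, counts of 0 or 1 are near those shares. Of 15 measured methyltransferases outside the rule 0 were at least 25% higher or 20% lower, with a median log2 ratio of -0.026. Smyd5 was highest at 1.249 (1.12 to 1.40), Prdm9 had 1.17 (0.988 to 1.38), and Smyd3 at 0.827 (0.758 to 0.902) and Setmar at 0.814 (0.626 to 1.06) were lowest. Of 11 further demethylases and related hydroxylases, including demethylases of RNA, 1 was at least 25% higher and the median was 0.081. It was Hr, the hairless gene, an H3K9 demethylase at 1.00 RPKM in the normal against 1.58 in the treated library, a ratio of 1.58 (1.36 to 1.83). Alkbh1 at 1.23 was also on the higher side, and Riox1 at 0.759 and Alkbh5, an RNA demethylase, at 0.832 were on the lower side. Among 10 genes of COMPASS, the complex of H3K4 methyltransferases, and of its partners, 0 were past either size. Rbbp5 stood at 1.09, Psip1 at 0.909, Wdr5 at 0.931 and Paxip1 at 0.891. Likewise 0 of 14 Polycomb partners passed, among which Cbx7 stood at 0.791, Phf19 at 0.803 and Phf1 at 0.868. Of 14 readers and partners of H3K9 and DNA methylation 0 passed. Mbd3 stood at 0.856, Mbd2 at 0.909, Uhrf1 as given above and Zbtb33 at 1.14.

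Supply of the methyl donor and of 2-oxoglutarate was covered by further lists, whose counts stand beside the same shares over all features. Of 17 measured genes of the methionine and folate cycles, 0 were at least 20% lower, and the median log2 ratio was -0.029. Mtrr, which reactivates methionine synthase, was at 1.22, while Mthfd1 at 0.848 and Ahcyl1 at 0.812 were lower. Of 22 genes of 2-oxoglutarate, succinate and fumarate metabolism 1 was at least 20% lower and 0 were higher, with a median of -0.019. Idh2, the mitochondrial NADP-dependent enzyme that makes 2-oxoglutarate, stood at 94.6 RPKM in the normal against 64.7 in the treated library, a ratio of 0.684 (0.664 to 0.705). Idh1, its cytosolic counterpart, was on the other side, at 24.2 and 29.4 RPKM and a ratio of 1.21 (1.16 to 1.28). Suclg2 at 0.854 and Sdhc at 0.889 were lower. RNAs of the nucleus, read as a sign of RNA quality, were higher in all 4 measured cases of 6 listed, with a median of 0.38, from 1.04 for Malat1, 1.23 for Neat1 and 1.40 for Snhg1 to 3.20 for Rn7sk with 12 and 38 reads. Their part in the ratios of the members was not tested. Among genes named here that are not members, exons of Riox1, Alkbh1, Psip1, Cbx7, Phf1, Zbtb33, Mthfd1, Ankrd37, Hif1a, Malat1, Neat1 and Snhg1 overlap another listed feature.

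**Figure D5:**
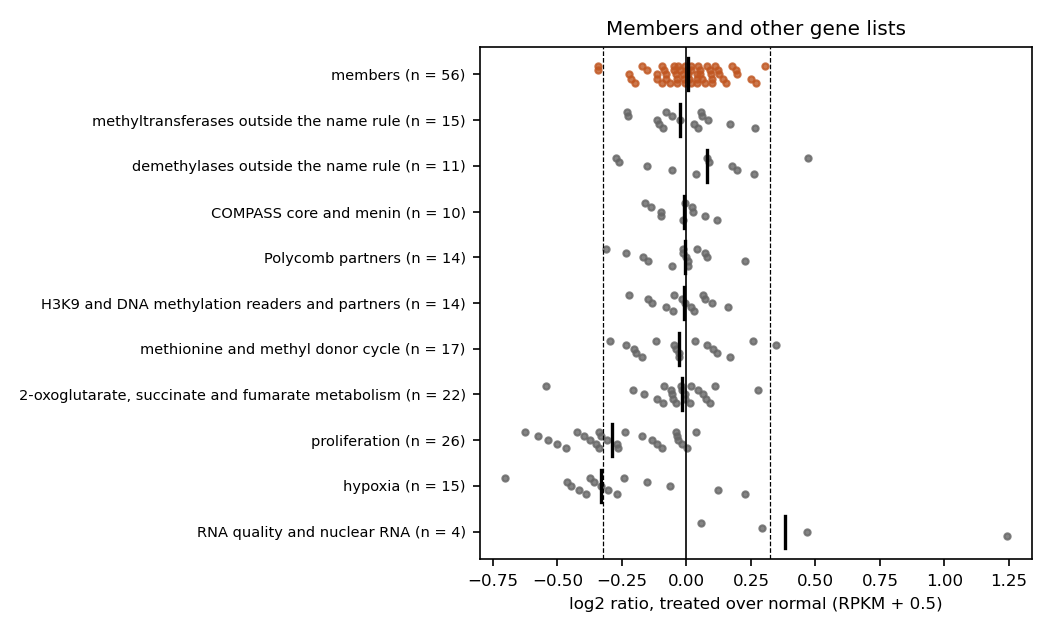
Log2 ratio of treated to normal (RPKM + 0.5) for the 56 members and for each measured gene of 10 other lists, with a black bar at each median and dashed lines at 20% lower and 25% higher. The members centre on 0.0072, while the proliferation and hypoxia lists centre on -0.29 and -0.33.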

How the data were processed

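RNA of 2 MIN6 libraries was measured, 1 per group, and columns were matched to samples by title. The authors deposited RPKM values in 1 table with exon coordinates and feature lengths. Trimmomatic 0.36, edgeR 3.12.1 and build GRCm39 are named per the submitters' processing notes. An aligner, a counter, an annotation and the use of strand were not given in the sources used.

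RPKM times length gave whole reads for 100% of values within 0.01 read. Ratios were given exact Clopper-Pearson intervals from these reads, which understate the error if the mates of a pair were counted separately. Features with a mean of at least 1 RPKM were compared on log2 of RPKM plus a pseudocount of 0.5, and counted at 25% higher or 20% lower and at 1.5-fold. No p-value was computed. The steps were tested on simulated reads. Promoter windows came from RefSeq (GRCm38.p6). Python 3.11.15, pandas 2.3.3 and scipy 1.17.1 were used. All measured members may be named, and up to 4 genes of each other list by size of log2 ratio. Mcm3 and the genes above 0 in the proliferation and hypoxia lists are named besides. A few genes of these lists are not reported here. Members, lists and thresholds were chosen with earlier results of these data known. Alternatives were pseudocounts of 0.1 and 1, other scalings, a minimum of 5 RPKM, no filter, no overlapping members and reads divided by 2.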

Additional observations from a re-analysis of the deposited data

How the results depend on the processing

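The count of members at least 20% lower, 2, was 1 with a pseudocount of 1, 1 at a minimum of 5 RPKM and 1 without members overlapping another feature, each of which dropped Prmt8 and kept Kdm4b. Counts of 0 at 25% higher and at 1.5-fold did not move under any alternative run. The median over all members, 0.0072, ran from 0.0044 to 0.017 under the other alternatives and was -0.012, on the other side of 0, without overlapping members. Medians of small groups moved where the filter or the overlap rule changed their members. At a minimum of 5 RPKM they were 0.25 for H3K27 demethylases, from 1 gene, and -0.17 for PRC2. With no filter they were 0.094 for DNA methyltransferases and -0.074 for Tet genes, both on the other side of 0. Without overlapping members they were -0.20 for DNA methyltransferases, -0.0056 for H3K27 demethylases, 0.15 for H3K4 methyltransferases, -0.17 for PRC2 and 0.20 for Tet genes. Members with intervals above and below 1 numbered 12 and 11 with reads divided by 2, instead of 17 and 14. Scaling by the median of ratios or without the 10 most abundant features changed the sign of 1 member each, Prmt2 and Kdm6a, and shifted no member by more than 0.0064. Rescaling to the same read total changes nothing, since RPKM already divides by it. Leaving out the antisense RNAs and the pseudogene, chosen after seeing the data, kept the counts at 20% lower, 25% higher and 1.5-fold and the 14 intervals below 1. It lowered the intervals above 1 from 17 to 16 and the members above 0 from 30 to 29, since Kdm6bos is in both. No paired analysis was possible because there was 1 library per group. Replicate error is unknown, and leaving out a library was not possible.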
